A study of Mus musculus with 12 samples.

Results

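The exocrine pancreas consists largely of acinar cells, which make digestive proenzymes, pack them into zymogen granules and release them into the duct system. Islets are freed from this tissue when they are isolated, and RNA of acinar genes in an islet preparation is a usual measure of the exocrine tissue that comes along. Described here are 31 listed genes for acinar digestive enzymes, granule proteins and regulators. Where several probe sets named a gene alone, the one brightest on average over the arrays was read. Of the 31, 27 had such a probe set, and all 27 were above the level filter and were tested among 15237 genes. Prss1, Try4 and Try5, which encode trypsinogens, share their probe sets with other genes, and Pnlip, which encodes pancreatic lipase, was not named in the probe annotation used here, so these 4 were not analysed here.

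The C57BL6 mice of the study either were wild type (WT) or carried a knockout of Sgpp2 (KO), the gene of sphingosine-1-phosphate phosphatase 2, and either genotype was fed a normal or a high-fat diet. Each of the 4 groups (WT normal, KO normal, WT high-fat and KO high-fat) held 3 Affymetrix mouse expression arrays. The series is about pancreatic islets, but the sample labels named no tissue, age, diet duration or number of animals, and did not say how the knockout was made. Whether the arrays of a group stand for separate animals is not stated, so the p-values measure only the spread between these arrays, which may be technical.

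Values are log2 signals after robust multi-array averaging (RMA), so a log2 difference is the logarithm of a fold difference in signal. Array medians lay between 7.0 and 7.13 and array maxima between 15.23 and 15.3. The probe set of Sgpp2 read 11.46 to 11.63 on the WT arrays and at most 11.17 on the KO arrays, so the labelled genotypes did not overlap. The log2 difference, KO minus WT, was only −0.46, and the KO signal stayed far above the array medians. Whether this probe set lies inside the deletion is not known here, and one outside it would not check the knockout. These values therefore do not establish the genotype of each array. Islet hormone signal was high on every array: Ins2, insulin 2, ranged from 14.36 to 14.71 and Gcg, proglucagon, from 14.3 to 14.55. In whole tissue RNA of this kind, fewer cells of a type and less RNA per cell cannot be told apart.

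The enzymes fall into the classes that pancreatic juice holds. Among the trypsinogens, precursors of the protease that activates the other proenzymes, Prss2 had a mean log2 signal of 14.11 and Prss3 of 9.8. The chymotrypsinogens Ctrb1, Ctrl and Ctrc had means of 14.63, 14.13 and 8.7. Ctrc is listed as a transcribed pseudogene in the mouse reference annotation. The elastases Cela1, Cela2a and Cela3b, which cut next to small residues, had means of 14.33, 13.95 and 14.38, and the carboxypeptidases Cpa1 and Cpb1, which trim peptides from the C-terminal end, of 13.97 and 13.9. Of the genes of lipid digestion, the lipase-related proteins Pnliprp1 and Pnliprp2 had means of 13.99 and 13.48. Clps, the colipase that anchors lipase to fat droplets, had a mean of 14.39, the carboxyl ester lipase Cel of 13.76 and the phospholipase A2 gene Pla2g1b of 12.91. Rnase1, the pancreatic ribonuclease, had a mean of 14.15 and Klk1, tissue kallikrein, a serine protease that frees kinins, of 13.48.

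Of the granule proteins, syncollin (Sycn) had a mean log2 signal of 14.4, the granule lectin Zg16 of 14.66, the granule membrane glycoprotein Gp2 of 12.19 and Cuzd1, another granule membrane protein, of 12.74. The transcription factors were dimmer, apart from Bhlha15 (Mist1), which drives the maturation of secretory cells and had a mean of 12.19. Ptf1a and Rbpjl, subunits of the acinar PTF1 complex, had means of 6.43 and 7.2, and Nr5a2, a nuclear receptor that works with PTF1, had a mean of 7.41. Tff2, a secreted trefoil peptide, and Gatm, the first enzyme of creatine synthesis, had means of 12.25 and 9.9. Probe sets differ in affinity, so these means do not rank the genes by transcript number. The probe sets used for Prss2, Cela3b, Pnliprp2, Pla2g1b and Zg16 are of a type that may match several related transcripts, which leaves the share of each paralogue in those signals uncertain.

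PTF1 binds a paired site in the promoters of acinar genes, made of an E-box and a box read by its RBPJ-type subunit. The 250 bases before the annotated start (RefSeq, GRCm38.p6) were searched on both strands for CACCTG, or CAGGTG on the other strand, and for TGGGAA, or TTCCCA on the other strand. The runs can overlap where CAGGTG runs into TGGGAA, and they stand apart in the windows shown here. RefSeq gave 24 windows for 23 of the analysed genes. The E-box letters stood in 14 of these 24 windows, against 17.2% of all 32851 mouse windows of the same length, and the TGGGAA letters in 13, against 21.6%. Both stood in 6 windows, those of Cel, Cela2a, Ctrl, Klk1, Prss2 and Rbpjl, against 3.91% of all windows. The runs were counted at any spacing and in any order, so these 6 windows are not a count of paired PTF1 sites. Of these 6, Klk1 is shown because it was the only one of the 27 genes past the test threshold in the comparisons reported here, Prss2 and Cel as a protease and a lipase, and Rbpjl as a subunit of PTF1 itself. Pla2g1b, which holds neither motif in this window, is shown beside them. Capitals mark the motif letters, and a match is a run of letters, not evidence of binding. The Klk1 window is chr7:44225110-44225359 on the plus strand, and that of Prss2 is chr6:41521526-41521775 on the plus strand. The Cel window is chr2:28563404-28563653 on the minus strand, that of Rbpjl is chr2:164402944-164403193 on the plus strand, and that of Pla2g1b is chr5:115465892-115466141 on the plus strand.
Klk1: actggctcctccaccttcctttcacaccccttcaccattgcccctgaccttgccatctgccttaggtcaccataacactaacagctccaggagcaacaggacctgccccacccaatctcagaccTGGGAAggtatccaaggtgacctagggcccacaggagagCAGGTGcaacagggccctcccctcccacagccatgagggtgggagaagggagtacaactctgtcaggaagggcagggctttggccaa
Prss2: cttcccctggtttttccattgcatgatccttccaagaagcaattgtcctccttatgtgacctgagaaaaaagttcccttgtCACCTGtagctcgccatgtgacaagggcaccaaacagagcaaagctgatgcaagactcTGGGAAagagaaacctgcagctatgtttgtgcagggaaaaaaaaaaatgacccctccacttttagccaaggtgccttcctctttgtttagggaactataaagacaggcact
Cel: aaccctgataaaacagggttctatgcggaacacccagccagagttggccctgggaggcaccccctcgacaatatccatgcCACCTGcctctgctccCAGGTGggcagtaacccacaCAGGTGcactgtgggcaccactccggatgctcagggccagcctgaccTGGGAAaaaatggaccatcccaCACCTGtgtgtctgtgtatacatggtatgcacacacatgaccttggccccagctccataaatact
Rbpjl: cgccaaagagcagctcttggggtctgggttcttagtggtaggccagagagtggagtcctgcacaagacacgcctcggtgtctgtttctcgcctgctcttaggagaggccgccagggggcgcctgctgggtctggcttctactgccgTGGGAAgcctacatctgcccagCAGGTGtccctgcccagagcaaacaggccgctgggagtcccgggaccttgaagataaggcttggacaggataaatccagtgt
Pla2g1b: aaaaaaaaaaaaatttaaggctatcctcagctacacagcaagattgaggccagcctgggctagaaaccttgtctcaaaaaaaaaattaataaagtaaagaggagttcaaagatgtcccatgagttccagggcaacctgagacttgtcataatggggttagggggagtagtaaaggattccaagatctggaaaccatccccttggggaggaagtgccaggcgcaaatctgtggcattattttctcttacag
In the Klk1 window the TGGGAA run began at position −126 and the E-box run at −87, counted from the start. In Prss2 the order was reversed, with the E-box run at −169 and TGGGAA at −111, and Cel held 4 E-box runs, at −170, −154, −134 and −65, around a TGGGAA at −87.

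The acinar genes varied together from array to array. A score per array, the mean over the 27 genes of the log2 deviation from each gene's own mean over all arrays, read −0.27, −0.07 and 0.13 on the WT normal arrays and 0.43, 0.41 and 0.03 on the KO normal arrays. It read 0.05, −0.46 and −0.09 on the WT high-fat arrays and −0.03, −0.06 and −0.07 on the KO high-fat arrays. KO normal arrays 1 and 2 were thus the high end, WT high-fat array 2 the low end, and KO normal array 3 lay far below the other arrays of its group. The range of the score was 0.889, against a pooled within-group SD of 0.202. The KO high-fat arrays lay closest together.

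Gene by gene, 21 of the 27 were lowest on WT high-fat array 2, which was the lowest array for 5.67% of all genes tested. KO normal array 1 or 2 was the highest for 25 of the 27, and for 10.8% of all genes. On both of those KO arrays all 27 genes lay above their own mean, and on WT normal array 1 all 27 lay below it. Of the role groups, the trypsinogens alone had their lowest score on WT normal array 1 (−0.65); the chymotrypsinogens, elastases, carboxypeptidases, lipid genes, nuclease and kallikrein, granule proteins, transcription factors and the pair of other genes had theirs on WT high-fat array 2, from −0.27 to −0.63. The 2 genes that were not highest on KO normal array 1 or 2 were Bhlha15 and Ptf1a, which both peaked on WT high-fat array 1, at 12.58 and 7.23. Because WT high-fat array 2 stood apart, the results that rest on it are also given without it.

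**Figure D1:**
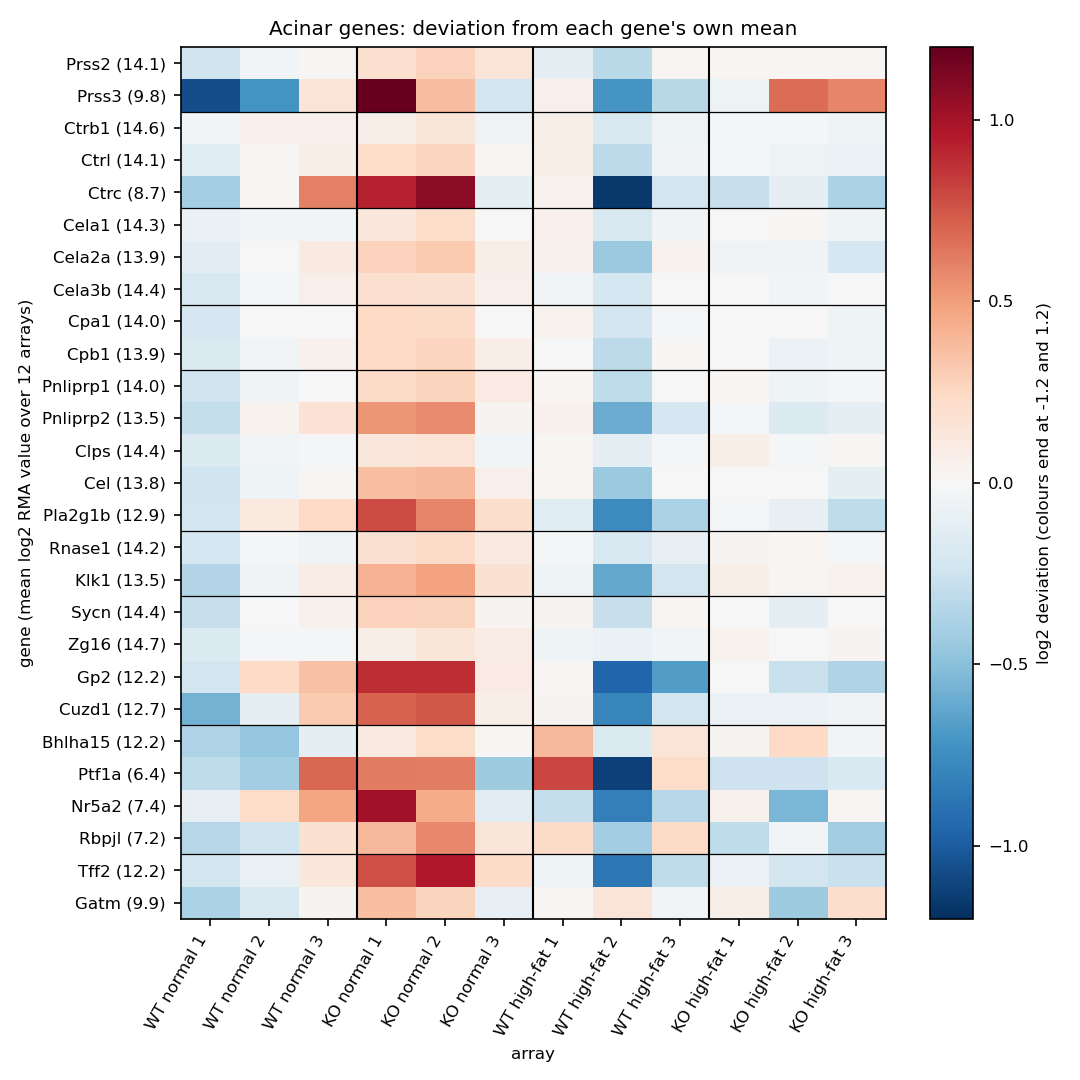
Log2 deviation of the 27 acinar genes (rows, with their mean log2 signal in brackets, grouped by role) from their own mean on each of the 12 arrays (columns, by group). Red is above the gene's mean and blue below it, with colours ending at the values on the scale; KO normal arrays 1 and 2 are red throughout, and WT high-fat array 2 is blue in all genes but 1.

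KO and WT mice on the normal diet were compared for their difference in acinar signal without the high-fat diet. All 27 genes had the higher mean in KO, and 40.2% of all genes tested did. With cyclic loess scaling the count was 26, without Ctrb1. It was also 26 when WT normal array 1, KO normal array 1 or KO normal array 2 was left out. The median log2 difference of the acinar genes was 0.288, from 0.03 (Ctrb1) to 1.01 (Prss3), and that of all genes was −0.0544. In limma's moderated test with Benjamini-Hochberg adjustment over all genes, 0 of the 27 passed the threshold of 0.05, and 0.84% of all genes passed in either direction. At an unadjusted p under 0.05, 16 of the 27 were higher in KO, where 8.79% of all genes were. The KO and WT arrays did not overlap for 12 of the 27, all higher in KO, where 12% of all genes had that pattern.

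Rnase1 had the smallest p of the acinar genes in this comparison. It read 13.94, 14.14 and 14.11 on the WT normal arrays and 14.34, 14.38 and 14.26 on the KO normal arrays, so the groups did not overlap. The log2 difference was 0.26 (SE 0.079, adjusted p = 0.110, limma). Tff2 read 12.03, 12.16 and 12.38 in WT and 13.02, 13.21 and 12.48 in KO, where array 3 lay close to the WT arrays, and differed by 0.71 (SE 0.216, adjusted p = 0.112, limma). Prss3 had the widest difference and the widest spread. It read 8.74, 9.08 and 9.96 in WT and 11.05, 10.17 and 9.58 in KO, with overlapping groups, and differed by 1.01 (SE 0.393, adjusted p = 0.178, limma). The paralogue Prss2 read 13.87, 14.08 and 14.12 in WT against 14.3, 14.39 and 14.26 in KO, a difference of 0.29 (adjusted p = 0.137, limma).

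Each role group had the same sign on the normal diet. The median differences were 0.185 for the 3 chymotrypsinogens, 0.194 for the 3 elastases, 0.237 for the 2 carboxypeptidases, 0.364 for the 5 lipid genes, 0.385 for the 4 granule proteins and 0.36 for the 4 transcription factors. Among the brightest genes of their groups, Cela3b read 14.19, 14.36 and 14.44 in WT and 14.57, 14.56 and 14.44 in KO. Cpa1 read 13.77, 13.97 and 13.97 in WT and 14.21, 14.2 and 13.98 in KO, and Clps read 14.23, 14.36 and 14.37 against 14.53, 14.56 and 14.36. In these 3 genes KO normal array 3 lay beside the highest WT arrays while the other KO arrays lay above them. Ctrb1, at the top of the signal scale, read 14.59, 14.69 and 14.69 in WT and 14.7, 14.77 and 14.58 in KO. Its groups overlapped, and the difference was 0.03 (adjusted p = 0.870, limma). Without KO normal array 3 the median difference of the 27 genes was 0.468, over 1.5 times the value with it, and without WT normal array 1 it was 0.211 with 26 of 27 higher.

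On the high-fat diet 23 of the 27 genes had the higher mean in KO, or 18 with cyclic loess scaling, and 43.3% of all genes did. The median log2 difference was 0.0715. None of the 27 passed the adjusted threshold in limma, where 0.0263% of all genes passed in either direction. At an unadjusted p under 0.05, 1 gene, Klk1, was higher in KO, against 6.27% of all genes. The groups did not overlap for 2 genes, Klk1 and Zg16, against 7.31% of all genes. Zg16 read 14.61, 14.58 and 14.63 in WT high-fat and 14.7, 14.65 and 14.69 in KO high-fat, a difference of 0.07 (adjusted p = 0.633, limma). The 4 genes with the lower mean in KO were Bhlha15, Ptf1a, Rbpjl and Gatm, at −0.04, −0.2, −0.26 and −0.1 on the log2 scale. The direction on this diet rested on WT high-fat array 2: without it 11 genes were higher and 16 lower in KO, and the median was −0.022. Without WT high-fat array 1 or 3 the median was 0.127 or 0.113.

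Of the brightest genes by role, Prss2, Ctrb1, Cela3b, Cpa1, Clps and Rnase1 differed by at most 0.16 on the log2 scale between the genotypes on the high-fat diet. Prss2 read 13.99, 13.79 and 14.13 in WT and 14.13, 14.13 and 14.13 in KO, and Rnase1 read 14.14, 13.96 and 14.05 against 14.19, 14.18 and 14.14. In both genes the groups overlapped within the rounding of these values, and the differences were 0.16 (adjusted p = 0.481) and 0.12 (adjusted p = 0.514) in limma. Ctrb1 read 14.7, 14.44 and 14.56 in WT and 14.61, 14.61 and 14.56 in KO, and Cela3b read 14.35, 14.17 and 14.37 against 14.37, 14.35 and 14.38. Cpa1 read 14.02, 13.74 and 13.96 in WT and 13.97, 13.98 and 13.92 in KO, and Clps read 14.41, 14.29 and 14.37 against 14.46, 14.38 and 14.41. In these 4 genes WT high-fat array 2 was the lowest of the 6 arrays, and the genotypes overlapped. Tff2 read 12.2, 11.38 and 11.94 in WT and 12.18, 12.03 and 11.98 in KO, with WT array 2 again apart. In Zg16 WT high-fat array 2 was also the lowest, at 14.58, but close to the other WT arrays, at 14.61 and 14.63. On the normal diet Zg16 read 14.49, 14.64 and 14.64 in WT and 14.73, 14.8 and 14.75 in KO. Its lowest value over all arrays was on WT normal array 1.

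**Figure D2:**
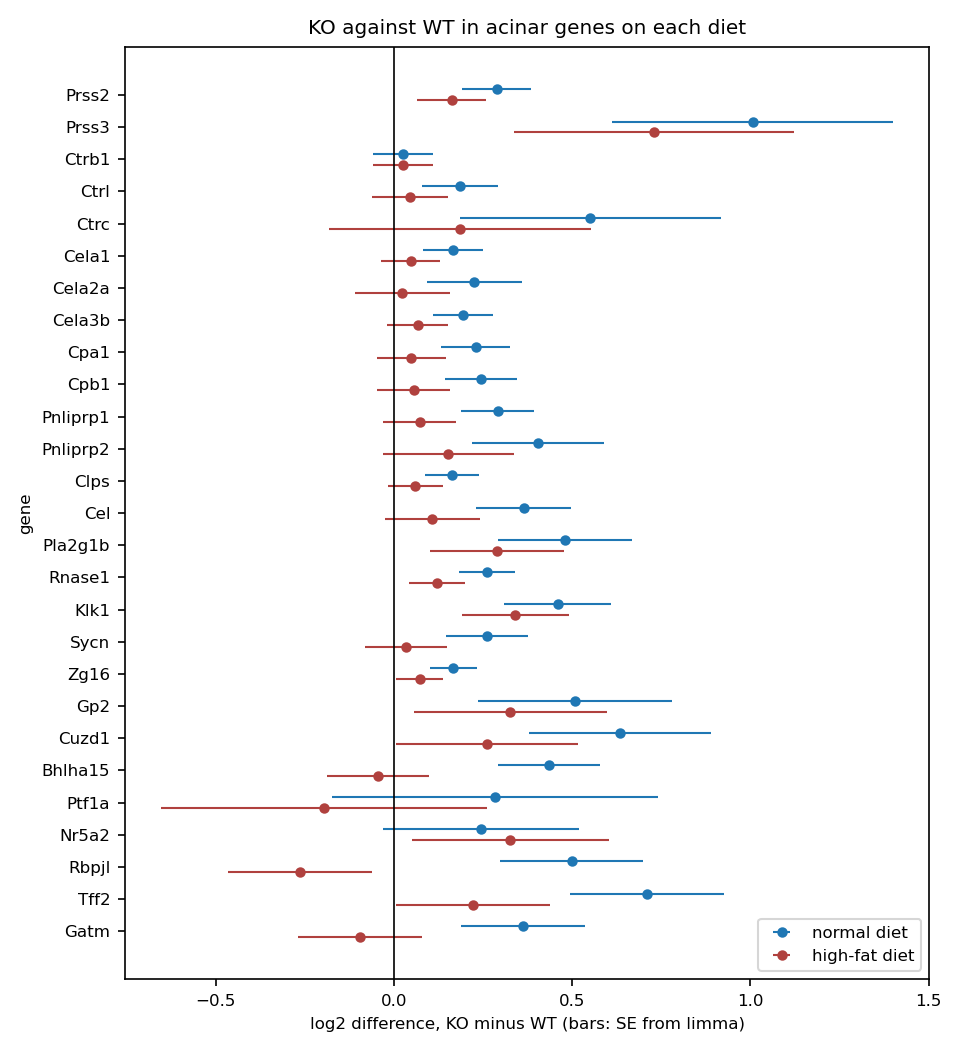
Log2 difference, KO minus WT, of the 27 acinar genes on the normal (blue) and the high-fat diet (red), with the standard error from limma as bars (3 arrays per group). On the normal diet the points lie between 0.03 and 1.01, and on the high-fat diet between −0.26 and 0.73.

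Averaged over the diets, all 27 genes had the higher mean in KO, against 40.5% of all genes. With cyclic loess scaling the count was 26, again without Ctrb1. It was also 26 with each gene's dimmest probe set above the filter, and when array 1 or 2 of either normal-diet group was left out. The median log2 difference was 0.181, and without WT high-fat array 2 it was 0.128 with 25 genes higher. At an unadjusted p under 0.05, 10 genes were higher in KO, against 10.8% of all genes, and 1 gene, Klk1, passed the adjusted threshold, against 6.32% of all genes in either direction. Klk1 lies at chr7:44225360-44229622 (GRCm38.p6) and read 13.13, 13.44 and 13.57 on the WT normal arrays and 13.9, 13.96 and 13.66 on the KO normal arrays. On the high-fat diet it read 13.42, 12.87 and 13.26 in WT and 13.55, 13.5 and 13.52 in KO. On each diet every KO array lay above every WT array. Averaged over the diets, Klk1 was 0.40 higher in KO on the log2 scale, or 1.32-fold (SE 0.106, adjusted p = 0.0486, limma).

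The Klk1 call lay close to the threshold. With the KO arrays of a number as a random block, adjusted p was 0.0849 (limma), and in 11 of the 12 fits that left out 1 array it lay between 0.0506 and 0.113. Without WT high-fat array 2 the difference was 0.32 (adjusted p = 0.0397, limma). Klk1 had 3 further probe sets above the filter. One of them, with a mean of 13.47, differed by 0.5 on the normal and 0.35 on the high-fat diet, one with a mean of 6.52 by 0.7 and 0.4, and one with a mean of 8.13 by 0.08 and −0.3. These 3 are of the type that may match related transcripts, and the mouse genome holds close paralogues of Klk1. After Klk1, the smallest adjusted p-values in limma were 0.0623 for Rnase1, with a difference of 0.19, 0.0685 for Prss2, with 0.23, and 0.0788 for Prss3, with 0.87. Nr5a2 is the only one of the 27 on chromosome 1, where Sgpp2 lies, and differed by 0.28 in the average over diets.

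**Figure D3:**
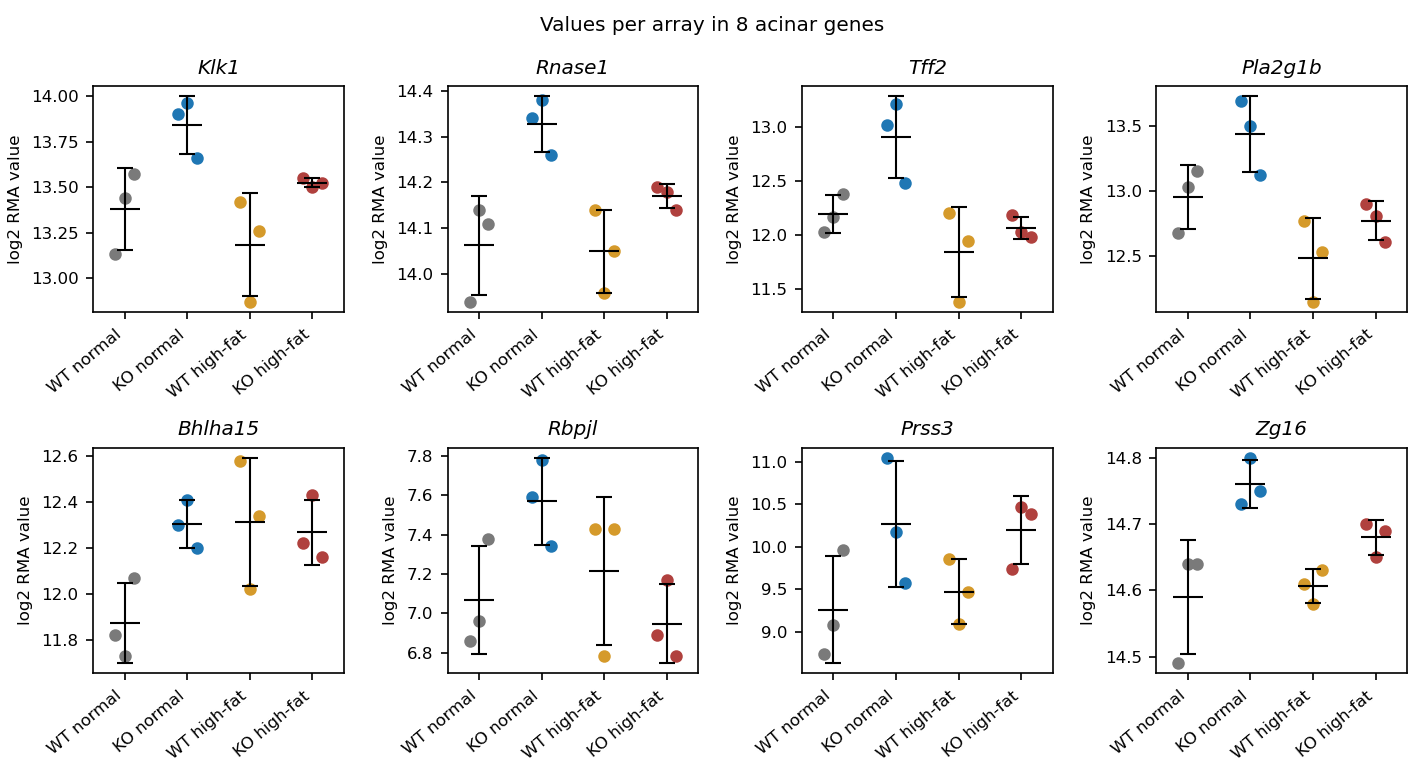
Log2 RMA values of Klk1, Rnase1, Tff2, Pla2g1b, Bhlha15, Rbpjl, Prss3 and Zg16 on each array (points) by group, with the group mean and SD as bars (n = 3 arrays per group). In Klk1 every KO array lies above every WT array of the same diet, while in Prss3 the groups overlap on both diets.

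The comparison of the diets asked whether acinar signal differed with the high-fat diet within a genotype. In WT, 19 of the 27 genes had the lower mean on the high-fat diet, against 55.4% of all genes, and the median log2 difference was −0.0438. None passed the adjusted threshold in limma, where 0.0788% of all genes passed. At an unadjusted p under 0.05, 3 genes were lower (Pla2g1b, Nr5a2 and Gp2), against 7.22% of all genes, and 1, Bhlha15, was higher. The diet groups did not overlap for 1 gene, Nr5a2, against 10.2% of all genes. Nr5a2 read 7.31, 7.63 and 7.88 on the normal and 7.12, 6.59 and 7.06 on the high-fat diet, a difference of −0.68 (adjusted p = 0.387, limma). Bhlha15 had the smallest p. It read 11.82, 11.73 and 12.07 on the normal and 12.58, 12.02 and 12.34 on the high-fat diet and was 0.44 higher (SE 0.143, adjusted p = 0.276, limma). Without WT high-fat array 2 the median of the 27 genes was 0.034 with 19 of them higher, and without WT normal array 3 it was 0.007. It was −0.122 when WT normal array 1 was left out, and −0.0941 and −0.102 when array 1 or 3 of the WT high-fat group was.

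In KO, all 27 genes had the lower mean on the high-fat diet, against 51.9% of all genes, and the median log2 difference was −0.226. None passed the adjusted threshold in limma, and 0% of all genes did. Before adjustment, 10 genes were lower with p under 0.05, against 4.13% of all genes, and for 19 genes the diet groups did not overlap, against 6.71% of all genes. Tff2 had the smallest p and read 13.02, 13.21 and 12.48 on the normal and 12.18, 12.03 and 11.98 on the high-fat diet. Every normal-diet array lay above every high-fat array, and the difference was −0.84 (SE 0.216, adjusted p = 0.409, limma). Pla2g1b read 13.69, 13.5 and 13.12 on the normal and 12.9, 12.81 and 12.61 on the high-fat diet, a difference of −0.66 (adjusted p = 0.452, limma). Gp2, with means of 12.82 and 11.99, differed by −0.83, Pnliprp2 by −0.48 and Cel by −0.31. This comparison shares the KO normal arrays with the comparison of genotypes on the normal diet, so the 2 sets of values are not independent. Without KO normal array 3 the median was −0.364.

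Averaged over the genotypes, 24 of the 27 genes had the lower mean on the high-fat diet, against 55.2% of all genes, with a median log2 difference of −0.138. Before adjustment, 8 genes were lower with p under 0.05, against 8.14% of all genes, and none passed the adjusted threshold in limma, where 0.197% of all genes did. Pla2g1b, whose product cuts the phospholipids of food, had the smallest p. In WT it read 12.68, 13.03 and 13.15 on the normal and 12.77, 12.15 and 12.53 on the high-fat diet, and its average difference over the genotypes was −0.56 (SE 0.133, adjusted p = 0.128, limma). Tff2 followed at −0.60 (adjusted p = 0.150) and Gp2 at −0.74 (adjusted p = 0.153). Without WT high-fat array 2 the median of the 27 genes was −0.075.

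The interaction term tested whether the KO minus WT difference on the high-fat diet differed from that on the normal diet. It was below 0 for 25 of the 27 genes, against 46.2% of all genes, with a median of −0.191. Leaving out array 2 of the WT high-fat group moved the median to −0.331, leaving out its array 1 to −0.103, and leaving out WT normal array 1 to −0.115. No acinar gene passed the adjusted threshold in limma, and 0% of all genes did. Before adjustment, Rbpjl and Bhlha15, 2 genes, lay below 0 with p under 0.05, against 1.98% of all genes. Rbpjl, the subunit that replaces RBPJ in the mature PTF1 complex, read 6.86, 6.96 and 7.38 in WT and 7.59, 7.78 and 7.34 in KO on the normal diet. On the high-fat diet it read 7.43, 6.78 and 7.43 in WT and 6.89, 7.17 and 6.78 in KO, so the order of the genotypes differed between the diets while the groups overlapped. Its interaction was −0.76 (SE 0.284, adjusted p = 0.937, limma), and that of Bhlha15 −0.48 (adjusted p = 0.979). Bhlha15 read 12.3, 12.41 and 12.2 on the KO normal and 12.22, 12.43 and 12.16 on the KO high-fat arrays. Ptf1a read 6.13, 6.02 and 7.12 in WT and 7.06, 7.05 and 6.01 in KO on the normal diet. On the high-fat diet it read 7.23, 5.31 and 6.65 in WT and 6.18, 6.18 and 6.25 in KO. The groups of Ptf1a overlapped in every comparison, and its SD was 0.99 on the WT high-fat and 0.04 on the KO high-fat arrays. Nr5a2 read 8.41, 7.85 and 7.28 on the KO normal and 7.46, 6.86 and 7.43 on the KO high-fat arrays.

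The spread of the acinar genes over the arrays varied with the brightness of their probe sets. The 9 genes with a mean log2 signal of 14 or more had a median range, from the lowest to the highest array, of 0.41. The 7 genes between 13 and 14 had a median range of 0.76, and the 5 between 11 and 13 of 1.54. The 3 between 8 and 11 had a median range of 2.23, and the 3 below 8 of 1.82. All genes tested in the same bands had median ranges of 0.156, 0.247, 0.415, 0.602 and 0.74. Zg16 spanned 14.49 to 14.8, or 1.23-fold, while Gp2, another granule protein, spanned 11.24 to 13.08, or 3.6-fold. Over all levels the acinar genes had a median range of 0.788 and a median within-group SD of 0.175, against 0.585 and 0.153 for all genes.

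Probe sets of the same gene showed the same relation in part. Of the 9 genes with several probe sets above the filter, the dimmest set had the wider range in 6. The dimmer set of Pla2g1b, with a mean of 11.43, ranged over 2.29, and the brighter set, with a mean of 12.91, over 1.54. For Sycn the ranges were 0.89 and 0.54, and for Cela3b 0.82 and 0.4. Klk1, Nr5a2 and Clps were the exceptions, with 1.07 against 1.09, 0.76 against 1.82 and 0.32 against 0.33. All 18 further probe sets above the filter had the higher mean in KO on the normal diet, from 0.08 to 0.7, and they share their gene with a set already counted. Because the spread varied with the signal level, differences of bright and dim genes are not compared in size here.

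**Figure D4:**
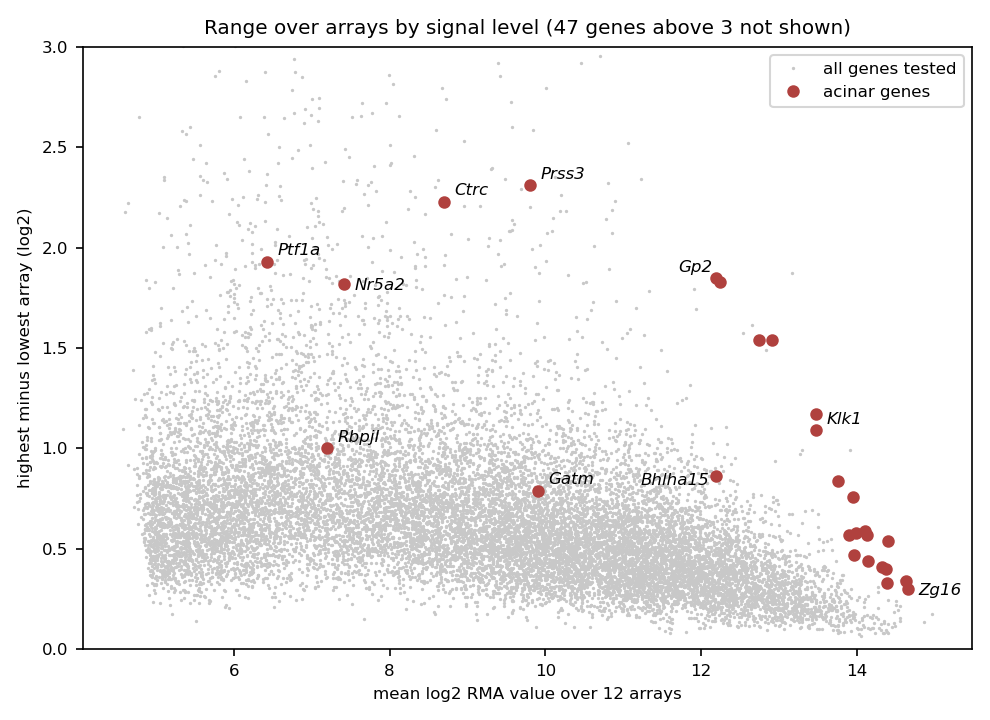
Range over the 12 arrays (highest minus lowest log2 value) against the mean log2 RMA value for the 27 acinar genes (red) and all genes tested (grey), with 47 genes above a range of 3 not shown. The red points run from Prss3, with a mean of 9.8 and a range of 2.31, down to Zg16, with a mean of 14.66 and a range of 0.3.

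Further genes listed as acinar were read the same way. Of 29 such genes, 17 had a probe set of their own and 16 were tested. Of the 16, 14 were lowest on WT high-fat array 2 and 14 highest on KO normal array 1 or 2, and their score ran from −0.82 to 0.77 on those arrays. On the normal diet 15 of 16 had the higher mean in KO, against 40.2% of all genes, with a median log2 difference of 0.385 and none past the adjusted threshold. In the average over diets 14 were higher in KO, against 40.5% of all genes, and 2 rose past the threshold, which 6.32% of all genes passed in either direction. Amy1, the only listed amylase gene with a probe set of its own, rose by 0.63 (adjusted p = 0.0381, limma). It has close paralogues, and their share in its signal was not tested. Cckar, the cholecystokinin receptor through which meals trigger enzyme release, rose by 0.96 (adjusted p = 0.0342, limma). With KO pairs as a random block the adjusted p-values of Amy1 and Cckar were 0.0759 and 0.0761 (limma). Over 19 alternatives Amy1 passed in 9 and Cckar in 11. Amy1 read 8.91, 9.51 and 9.3 on the WT normal and 10.32, 10.64 and 9.87 on the KO normal arrays, and 9.14, 8.6 and 9.16 on the WT high-fat and 8.99, 9.29 and 9.25 on the KO high-fat arrays. Cckar read 8.66, 9.5 and 9.72 on the WT normal and 10.9, 10.94 and 10.22 on the KO normal arrays, and 9.39, 8.34 and 8.97 on the WT high-fat and 9.41, 9.15 and 9.73 on the KO high-fat arrays. In both genes every KO array lay above every WT array on the normal diet, while the groups overlapped on the high-fat diet.

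With the diet, 15 of these 16 genes had the lower mean on the high-fat diet in WT, in KO and in the average over genotypes, against 55.4%, 51.9% and 55.2% of all genes. The median log2 differences were −0.261, −0.573 and −0.468. At an unadjusted p under 0.05 in either direction there were 2, 13 and 12 genes. Of all genes, 7.22%, 4.13% and 8.14% were lower at that p, and shares in either direction are not given here. Without WT high-fat array 2 the median in WT was −0.0512 with 10 of 16 lower. Reg2, a regenerating-family protein that islets are also known to express, was the 1 gene of that list past the adjusted threshold for the diet. It read 12.74, 12.04 and 13.97 on the WT normal and 9.25, 8.12 and 8.83 on the WT high-fat arrays, and it fell by 4.19 in WT (adjusted p = 0.0444, limma). In the average over genotypes it fell by 2.92 (adjusted p = 0.0352, limma). Neither call held without WT high-fat array 2, where the differences were −3.88 (adjusted p = 0.133) and −2.77 (adjusted p = 0.0723), and neither held without either other WT high-fat array. With the replicate numbers of all groups as a block, adjusted p was 0.0749 in WT and 0.0531 in the average (limma). Its range of 5.85 was not matched by the 27 acinar genes, none of which ranged over more than 2.31.

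Lists for other cell types did not show the same order of arrays. The 7 islet hormones had scores between −0.25 and 0.13, lowest on KO high-fat array 3, and none of the 7 was lowest on WT high-fat array 2 or highest on KO normal array 1 or 2. The 7 beta cell genes had scores between −0.11 and 0.1, also lowest on KO high-fat array 3. That array was the lowest for 23.1% of all genes tested. On KO normal arrays 1 and 2, where acinar scores were highest, the hormone scores were −0.05 and 0.03, and on WT high-fat array 2 the hormone score was 0.01. Apart from Ghrl, the hormones had means of 14.27 to 14.96 and ranged over only 0.17 to 0.34. Signal this close to the array maxima limits what their score can show. Ghrl, with a mean of 10.41, ranged over 1.59 and was lowest, at 9.37, on KO high-fat array 3. The 10 ductal genes had their highest score, 0.29, on KO normal array 2 and their lowest, −0.27, on KO high-fat array 3. Of the 10, 4 were highest on KO normal array 1 or 2, against 10.8% of all genes, and 1 was lowest on WT high-fat array 2. Krt19, a keratin of duct cells, ranged from 6.03 to 8.25 and was highest on KO normal array 2. Muc1 ranged from 7.18 on WT high-fat array 2 to 9.16 on KO normal array 2, the same extremes as the acinar score of the further genes. The keratins Krt7, Krt8 and Krt18 ranged over 0.46, 0.4 and 0.39 and had neither extreme on those arrays. On the normal diet 3 of the 10 ductal genes had the higher mean in KO, against 40.2% of all genes. Their median log2 difference was −0.117, against −0.0544 for all genes.

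In the average over diets, 6 of 6 endothelial genes had the lower mean in KO, where 40.5% of all genes had the higher mean, and 2 of them fell past the threshold, which 6.32% of all genes passed. Pecam1 fell by 0.50 (adjusted p = 0.0318, limma) and Kdr by 0.23 (adjusted p = 0.0448, limma). With KO pairs as a random block these were 0.0657 and 0.0941, and with the arrays centred on their median 5 of the 6 were lower and Kdr did not pass. Over 19 alternatives Pecam1 passed in 10 and Kdr in 5. The endothelial scores lay between −0.23 and −0.13 on the KO normal arrays and between −0.04 and 0.12 on the WT normal arrays. All 7 T and NK cell genes had the higher mean in KO on the normal diet, against 40.2% of all genes, with a median of 0.212 and none past the threshold. Their means over the arrays lay between 5.29 (Cd3g) and 6.12 (Cd3e), close to the filter at log2 5. Of 6 stromal genes, 4 had the higher mean in KO in the average over diets and 1, Pdgfrb, rose by 0.34 (adjusted p = 0.0299, or 0.0577 with KO pairs as a random block, limma). With the mean over its probe sets Pdgfrb differed by 0.12 (adjusted p = 0.345, limma), and it passed in 9 of 19 alternatives. With the diet, all 6 stromal genes had the lower mean on the high-fat diet in WT, against 55.4% of all genes, with a median log2 difference of −0.481. In the average over genotypes all 6 were lower, against 55.2% of all genes, with a median of −0.278. In KO 5 of 6 were lower, against 51.9% of all genes, with a median of −0.0637. The interaction was above 0 for 6 of 6, with a median of 0.411, and below 0 for 46.2% of all genes. None of these stromal differences with the diet passed the threshold. For KO against WT in the average over diets, the median differences were −0.229 for 6 macrophage genes and −0.229 for 3 B cell genes. None of these genes passed the threshold in that comparison. The part of these cell types in the acinar differences was not tested. No adipocyte gene reached the filter, and Adipoq, adiponectin, read 3.46 to 3.66. Of the 3 genes listed as liver markers, Alb read 5.6 to 6.45, Apoa1 8.22 to 11.36 and Ttr 14.46 to 14.68.

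**Figure D5:**
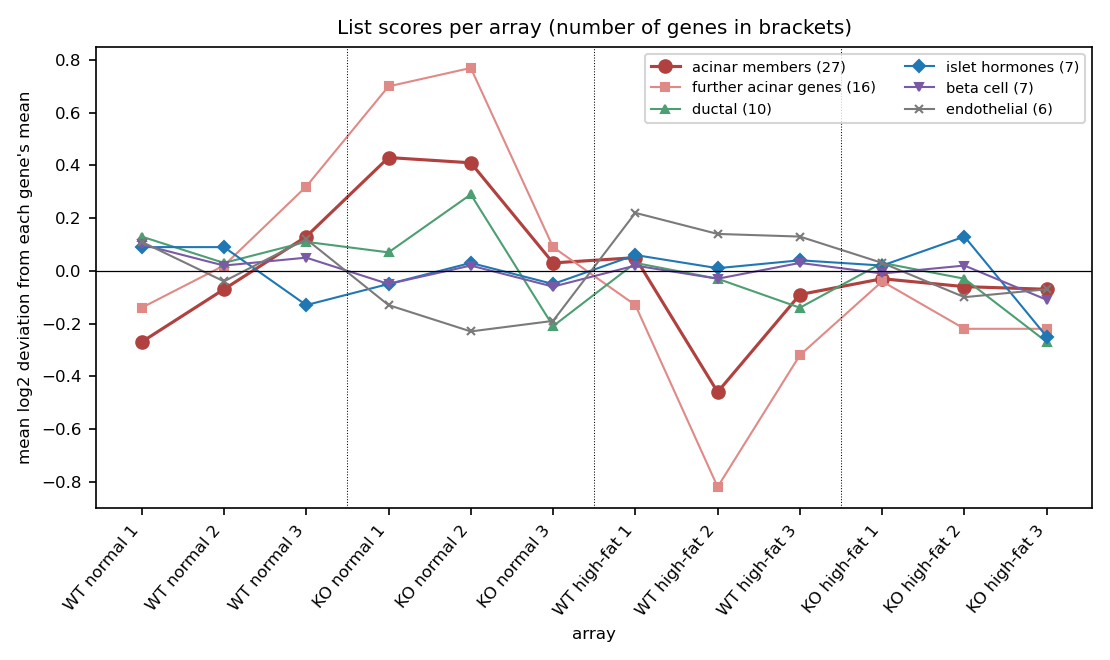
Mean log2 deviation from each gene's own mean on each of the 12 arrays for the 27 acinar genes and for 16 further acinar, 10 ductal, 7 islet hormone, 7 beta cell and 6 endothelial genes. The acinar lines peak on KO normal arrays 1 and 2 and dip on WT high-fat array 2, where the islet hormone line reads between −0.05 and 0.03.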

How the data were processed

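RNA from 12 samples was hybridised to 1 array each. The deposited values are log2 signals per probe set, made by the authors with RMA in Partek 6.6, per the submitters' processing notes. The platform annotation named 1 gene for 34945 of 45101 probe sets, several for 932 and none was listed for 9160. Of the 27 analysed genes, positions came from RefSeq GRCm38.p6.

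The probe set with the highest mean stood for a gene, and genes above log2 5 on at least 3 arrays were kept. limma 3.58.1 in R 4.3.3 fitted 1 mean per group over the 12 arrays, with 7 contrasts, 8 residual and 11.08 moderated degrees of freedom, and p-values were adjusted by Benjamini-Hochberg over 15237 genes. The limma step was tested on simulated data. Scores and counts were computed in Python 3.11.15. Depth does not apply to arrays, and their number limits the precision.

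The genes and lists were chosen with earlier results of these data known. Every acinar gene is named with its mean. Of these 27, values per array are given for genes past the threshold, for the smallest p in each comparison, for the brightest gene of each role and for means under log2 8. Per-array values of other genes were added after their values had been seen.

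The labels number the arrays of each group 1 to 3. Same-numbered KO arrays of the 2 diets deviated together (r = 0.288, 0.383 and 0.138 over genes), although the labels do not say what the number stands for. Between same-numbered arrays of the other pairs of groups, r ran from −0.512 to 0.107. Values of this size therefore do not establish that the KO arrays were paired. The reported fit has no pairing, and fits with KO pairs were alternatives chosen after seeing the data.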

Additional observations from a re-analysis of the deposited data

How the results depend on the processing

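The calls were few and lay near the threshold. The count of acinar genes past it in the average over diets was 1 in the reported fit and with a filter at log2 6, averaged probe sets or the dimmest probe set. It was 0 without the filter, with cyclic loess, with the replicate block and with KO pairs as a random replicate block (within-pair correlation 0.368). It was 3 with the arrays centred on their median, where Rnase1 (adjusted p = 0.0319) and Prss2 (adjusted p = 0.0359) joined Klk1. On the normal diet the dimmest probe set gave 1 call, Klk1 (0.70, adjusted p = 0.0221), and the reported fit gave 0. The dimmest probe set and both fits with KO pairs were chosen after seeing the data. The block changed no other call among the 27 genes, and a paired fit of the KO arrays alone also called 0 for the diet. Over 20 alternatives the adjusted p of Klk1 ranged from 0.00461 to 0.113 and was under 0.05 in 5. Over the fits that left out 1 array the count in the average over diets was 0.0 to 1.0, and in the other comparisons it was 0. These fits gave median differences of 0.211 to 0.468 for KO against WT on the normal diet, −0.022 to 0.127 on the high-fat diet and 0.128 to 0.214 in the average. For the diet they gave −0.122 to 0.034 in WT, −0.364 to −0.186 in KO and −0.168 to −0.075 in the average, and −0.331 to −0.103 for the interaction. With cyclic loess 18 of 27 genes were higher in KO on the high-fat diet, against 23. Without WT high-fat array 2, 281 of all genes were called on the high-fat diet in KO against WT, against 4, and 2513 in the average over diets, against 963. Signal close to the array maximum limits what the brightest probe sets can show. The causes of these shifts were not tested.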
